A study of Chlorocebus sabaeus with 4 samples.

Results

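The 10 genes described here are the Notch receptors NOTCH1, NOTCH2, NOTCH3 and NOTCH4, the ligands JAG1 and DLL4, and the target genes HES1, HEY1, HEY2 and HEYL. They were taken as all probe sets whose platform gene symbol is 1 of these 10, which gave 26 of the 54675 probe sets on the array and 10 of 19775 named genes. The tissue was frozen corpus luteum, the progesterone-making gland of the ovulated follicle, from 2 vervet monkeys (Chlorocebus sabaeus), both adult females aged 16 years. Monkey 1030 belonged to the ad libitum group and monkey 1031 to the calorie restriction group, and no other treatment or genotype is named. Each animal was its own control for weight change and gave 2 samples, numbered 1 and 2, with 1 array per sample. Whether sample 1 or sample 2 was taken first is not stated, so every change is given as sample 2 minus sample 1. With 1 animal per diet, diet and animal cannot be told apart, and a difference between an animal's samples carries no p-value, since neither sample was replicated.

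Notch receptors sit in the membrane of one cell and are switched on by ligands of the Jagged and Delta-like families on a neighbouring cell. The bound receptor is cut, first by an ADAM protease and then by the gamma-secretase complex, and its inner part moves to the nucleus, where it joins the DNA-binding protein RBPJ and Mastermind proteins. HES and HEY genes, which encode repressors of transcription, are among the genes switched on in this way. In blood vessels, DLL4 and NOTCH4 are known from endothelium and NOTCH3 from the smooth muscle cells and pericytes around it. The corpus luteum is a tissue of dense, fast-growing capillaries.

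Values are deposited log2 signals, so that a difference of 1 is a 2-fold difference. The brightest probe set, by its mean over the 4 samples, stands for a gene. All 10 genes lay above the level filter, a mean of 5.26 that is the median over all genes, and 9888 genes passed it. Sample 2 of the ad libitum animal was unlike the other arrays, with 912 to 1031 genes 2-fold away from each of them, against 122 to 333 among the other 3. Its luteal markers were low: the mean log2 signal of 11 markers of steroid-making luteal cells was 10.15 in sample 1 and 7.17 in sample 2 of that animal, and 8.63 and 9.40 in the calorie restriction animal. Of these 11, 9 were 2-fold lower in the first animal's sample 2, against 6.58% of all genes past the filter. In the second animal's sample 2, 5 were 2-fold higher, against 0.496%. Oocyte markers were 2-fold higher in that same ad libitum sample in 3 of 10, against 2.67% of all genes past the filter. Only 3 of the 10 passed the level filter. Of the raised genes FIGLA did not pass it. ZP4 and ZAR1 passed only through that sample, where they were at 8.30 and 8.12, and lay under 5.26 in the others. Macrophage markers had 2 of 13 higher and 1 lower at 2-fold in the ad libitum animal, against 2.67% and 6.58% of all genes. None was 2-fold higher or lower in the other animal, against 0.496% and 0.738%. In whole tissue, fewer cells of a type and less RNA per cell cannot be told apart.

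Across the 10 genes, the receptors, DLL4 and HEYL stayed under 1.5-fold between an animal's samples, while HES1, HEY1, HEY2 and JAG1 showed the larger changes, each in a pattern of its own. HES1 was lower in sample 2 of both animals, HEY1 was lower in the ad libitum animal, HEY2 was higher in one animal and lower in the other, and JAG1 was lower in the calorie restriction animal. At 2-fold, 1 of 10 genes was lower in the ad libitum animal, HEY1, and none higher, where 6.58% of all genes past the filter were lower and 2.67% higher. In the calorie restriction animal 1 of 10 was lower, HES1, and none higher, where 0.738% of all genes were lower and 0.496% higher. At 1.5-fold, 2 of 10 were lower and 1 higher in the ad libitum animal, against 15.2% and 9.54% of all genes. In the calorie restriction animal 3 of 10 were lower at 1.5-fold, against 3.93%, and none was higher, against 2.01%.

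**Figure D1:**
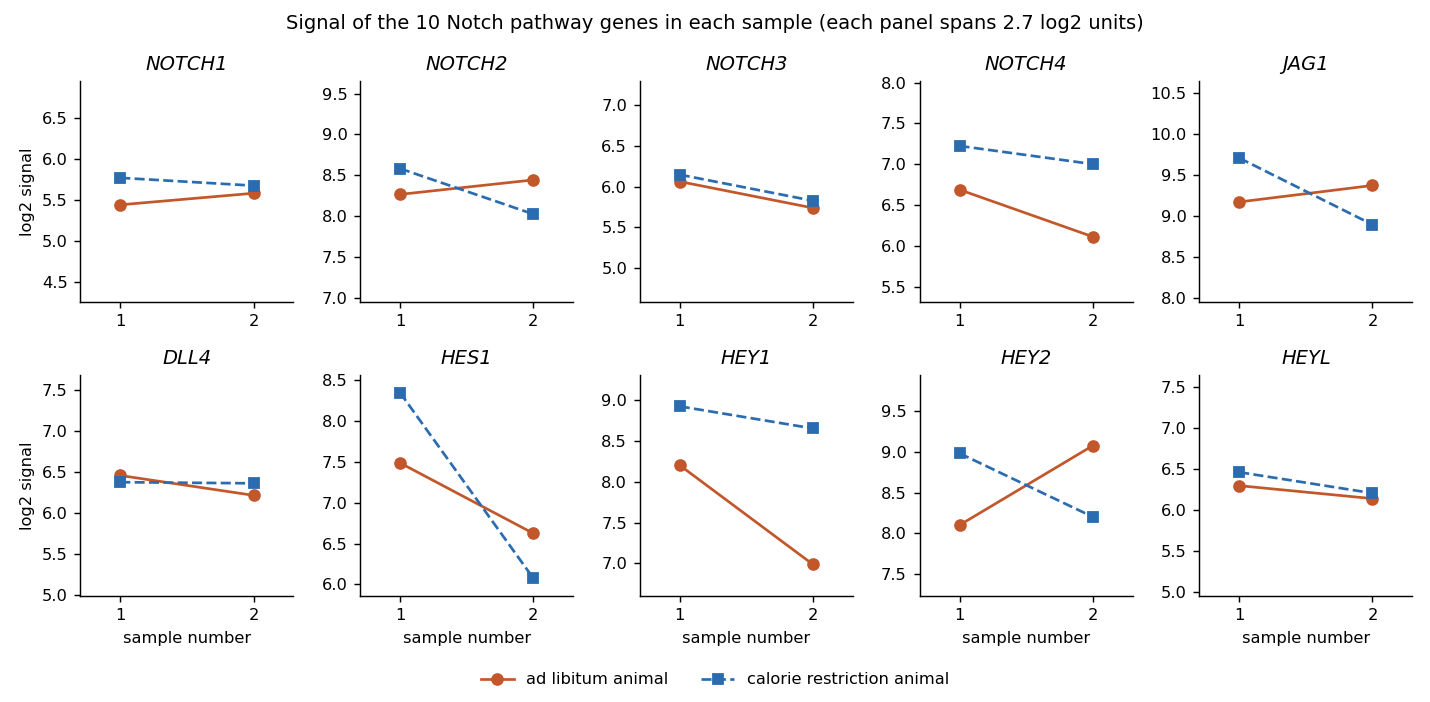
Log2 signal of each gene in both samples of the ad libitum animal (circles, solid line) and the calorie restriction animal (squares, dashed line), 1 array per point and no error bars. Every panel covers the same log2 span, so slopes can be compared. The lines for HES1 go down in both animals, those for HEY2 cross, and those for DLL4 and HEYL are nearly flat.

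By the brightest probe set, the calorie restriction animal had a negative change in all 10 genes, where 54.3% of all genes had one. For HEYL the second probe set, also above the filter level, gave 0.49, and the mean of both gave 0.11. The median change of the 10 was -0.29, and that of all genes -0.026. For DLL4 the change was -0.014, which came to 0.012 after cyclic loess normalisation, so that 9 of 10 were then negative. Of the 10 genes, 8 had their highest value in this animal's sample 1, against 21.7% of all genes. In the ad libitum animal 6 of 10 changes were negative, with a median of -0.20, against 51.4% of all genes with a median of -0.013. Changes were negative in both animals for 6 of the 10 genes, against 24.1% of all genes, and 1 of the 10, HES1, was 1.5-fold lower in both, against 0.748%.

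The receptors come first. NOTCH1, a widely expressed receptor, was at 5.44 in sample 1 and 5.58 in sample 2 of the ad libitum animal. In the calorie restriction animal it was at 5.77 and 5.68, in the same order. The 4 values lay within 0.33 of each other, and both samples of the calorie restriction animal were above both of the other animal.

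NOTCH2, also found in many cell types, was at 8.27 and 8.44 in the ad libitum animal and at 8.58 and 8.02 in the calorie restriction animal. The calorie restriction animal thus held both the highest and the lowest sample, with a change of -0.56, which 6.99% of all genes equalled or exceeded in either direction, and the animals overlapped. All 4 of its probe sets are of designs that can bind related sequences. Besides the brightest, the other 2 that lay above the filter level gave -0.38 and -0.42 in this animal and -0.33 and 0.37 in the ad libitum animal. Their direction was therefore shared in the first case and divided in the second. A further probe set that names NOTCH2 together with its human NOTCH2NL relatives was left out and gave 0.028 and -0.27.

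NOTCH3, the receptor of vascular smooth muscle, was at 6.06 and 5.74 in the ad libitum animal and at 6.15 and 5.83 in the calorie restriction animal. Both animals had a lower sample 2 by the same amount, -0.32 in each. Markers of pericytes and smooth muscle did not share a direction: 2 of 13 were 2-fold higher and 3 lower in the ad libitum animal, and 2 higher and none lower in the other. The shares over all genes at 2-fold are given above.

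NOTCH4, the endothelial receptor, was at 6.69 and 6.11 in the ad libitum animal and at 7.22 and 7.0 in the calorie restriction animal. It was lowest in the ad libitum animal's sample 2, with a change of -0.58 there and of -0.22 in the other animal, and the animals did not overlap. Its other probe set, at a mean of 4.59, gave -0.092 and 0.021. No receptor reached 1.5-fold in either animal.

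Of the ligands, JAG1, which encodes Jagged1, was at 9.17 and 9.37 in the ad libitum animal and at 9.71 and 8.89 in the calorie restriction animal. Sample 1 of the calorie restriction animal was the highest and its sample 2 the lowest of the 4, a change of -0.81 or 1.76-fold, which only 2.41% of all genes equalled or exceeded in either direction. JAG1 has 6 probe sets, all of designs that can bind related sequences. The 4 that lay above the filter level gave -0.81, -0.88, -0.61 and -0.88 in this animal. In the ad libitum animal the brightest gave 0.20. The others above that level gave -0.20, -0.13 and -0.14, so no direction can be given there. The 2 dim ones gave 0.038 and 0.25 in the calorie restriction animal.

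DLL4, the Delta-like ligand of sprouting endothelium, has a single probe set. It was at 6.46 and 6.21 in the ad libitum animal and at 6.38 and 6.36 in the calorie restriction animal. Its 4 values spanned 0.24, the smallest span of the 10 genes.

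**Figure D2:**
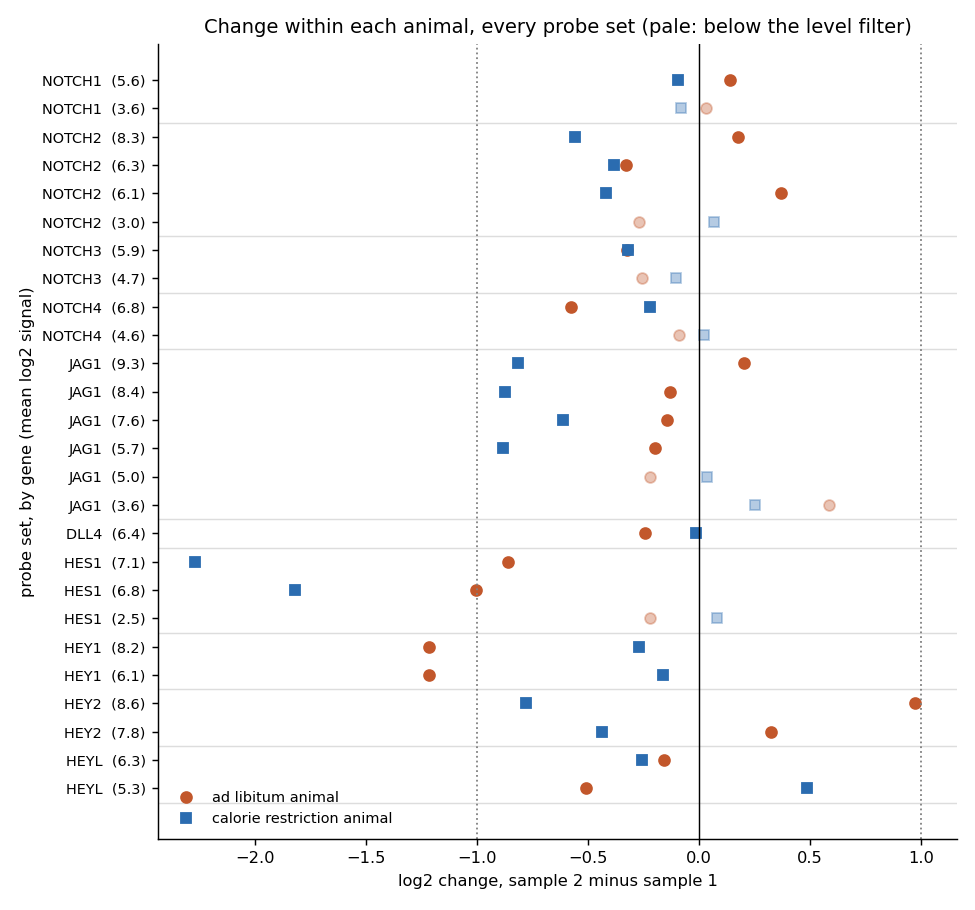
Log2 change, sample 2 minus sample 1, of all 26 probe sets, grouped by gene and ordered by mean log2 signal (in parentheses), in the ad libitum animal (circles) and the calorie restriction animal (squares). Dotted lines mark 2-fold, and pale symbols are the 7 probe sets below the level filter. The bright probe sets of HES1 and HEY1 lie together, and both pairs of HEY2 lie on opposite sides of 0. Those of JAG1 lie together in the calorie restriction animal and on both sides of 0 in the ad libitum animal.

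Among the targets, HES1, a repressor with a rapid and short-lived transcript, had the largest change. It was at 7.49 and 6.63 in the ad libitum animal and at 8.35 and 6.08 in the calorie restriction animal. Both values of sample 2 were below both values of sample 1. The change was -0.86, or 1.82-fold lower, in the ad libitum animal and -2.27, or 4.83-fold lower, in the calorie restriction animal. In the calorie restriction animal only 2 of 9888 genes had a larger decrease, whereas in the ad libitum animal 851 genes had one. A second probe set gave -1.0 and -1.82. The third, at a mean of 2.54, lay under 3.55, the 25th percentile of all genes, and gave -0.22 and 0.082. Averaging it with the others brought the change in the calorie restriction animal to -1.34.

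Immediate early genes, which are transcribed within minutes of a stimulus, were mostly lower in sample 2 in both animals as well. Of 15 measured, 12 were 1.5-fold lower and 2, ATF3 (1.52) and JUN (0.67), higher in the ad libitum animal. In the calorie restriction animal 13 were 1.5-fold lower and none higher. The shares over all genes at 1.5-fold are those given above. The list's mean log2 signal was 8.20 and 7.07 in the first animal and 7.98 and 6.90 in the second. Their part in the result for HES1 was not tested. The genes whose 4 centred values lay nearest those of HES1 were KLF10, which is also on that list, at a distance of 0.44 log2 units, TOB1 at 0.73 and the endothelial factor gene SOX18 at 0.76.

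HEY1, a repressor gene of arterial endothelium and other tissues, was at 8.20 and 6.99 in the ad libitum animal and at 8.92 and 8.65 in the calorie restriction animal. Sample 2 of the ad libitum animal was the lowest, 2.32-fold under sample 1 (-1.21), and the change in the other animal was -0.27. Its second probe set gave -1.21 and -0.16. In the ad libitum animal 417 genes had a larger decrease. The genes with the most similar values were TAPBP at a distance of 0.044 log2 units, the transcription factor gene ETS1 at 0.075 and MPPED2 at 0.13, and for NOTCH4 they were CPQ at 0.068, SLC6A6 at 0.069 and HLA-B at 0.083. These distances are over 4 samples.

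The list mean of endothelial markers had the order of samples seen in NOTCH4 and HEY1. In the ad libitum animal all 15 were lower in sample 2, 10 of them at 1.5-fold, against 51.4% and 15.2% of all genes. For the calorie restriction animal 13 of 15 were lower, 3 of them at 1.5-fold, against 54.3% and 3.93%. The list's mean log2 signal was 7.51 and 6.56 in the ad libitum animal, and 8.0 and 7.67 in the other. Of 7 arterial markers, 6 were 1.5-fold lower in the first animal and 2 in the second, against 15.2% and 3.93% of all genes. The arterial list's mean log2 signal was 7.32 and 6.47 in the first, and 7.97 and 7.48 in the second. The part of endothelial content in the values of NOTCH4 and HEY1 was not tested.

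HEY2, known from vascular smooth muscle and heart, was at 8.10 and 9.07 in the ad libitum animal and at 8.98 and 8.20 in the calorie restriction animal. It was 1.96-fold higher in sample 2 of the first (0.97) and 1.71-fold lower in sample 2 of the second (-0.78), so the animals overlapped and their means differed by 0.0039. The second probe set had the same pair of signs at a smaller size, 0.32 and -0.44. Of all genes, 1.45% had this pair of directions at 1.5-fold. After cyclic loess the ad libitum change was 1.04, past 2-fold.

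Opposite directions in the 2 animals were not particular to HEY2, and the hybridisation controls had them too. Positive in the ad libitum and negative in the calorie restriction animal, as HEY2, were 4 of 6 theca and interstitial markers. So were 6 of 10 oocyte and 6 of 13 macrophage markers, though only 3 of the 10 oocyte markers passed the level filter. The reverse pair was seen in 1, 0 and 1 of these lists' markers, and in 10 of 11 luteal markers. Over all 9888 genes, 5368 were negative in the calorie restriction animal, 5085 in the ad libitum animal and 2382 in both. Of 6 theca and interstitial markers, 4 were 2-fold higher in the ad libitum animal and 2 were 2-fold lower in the calorie restriction animal, with list means of 9.10 and 10.13, and of 9.05 and 7.98. Granulosa markers were divided, with 4 of 9 higher and 3 lower at 2-fold in the ad libitum animal, and 1 lower in the other. For these lists too, the shares over all genes at 2-fold are given above. The bacterial control RNAs that follow hybridisation had mean log2 signals of 10.58 and 9.85 in the ad libitum animal and 10.09 and 10.54 in the calorie restriction animal. These controls were thus lower where HEY2 was higher. The part of theca, luteal or other cell content, or of hybridisation, in the values of HEY2 was not tested.

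HEYL, a HEY relative of mural cells, was at 6.30 and 6.14 in the ad libitum animal and at 6.46 and 6.20 in the calorie restriction animal. Its values spanned 0.32 and the animals overlapped. Its second probe set gave -0.51 and 0.49, so the probe sets shared a direction in the ad libitum animal and disagreed in the calorie restriction animal, where none can be given.

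**Figure D3:**
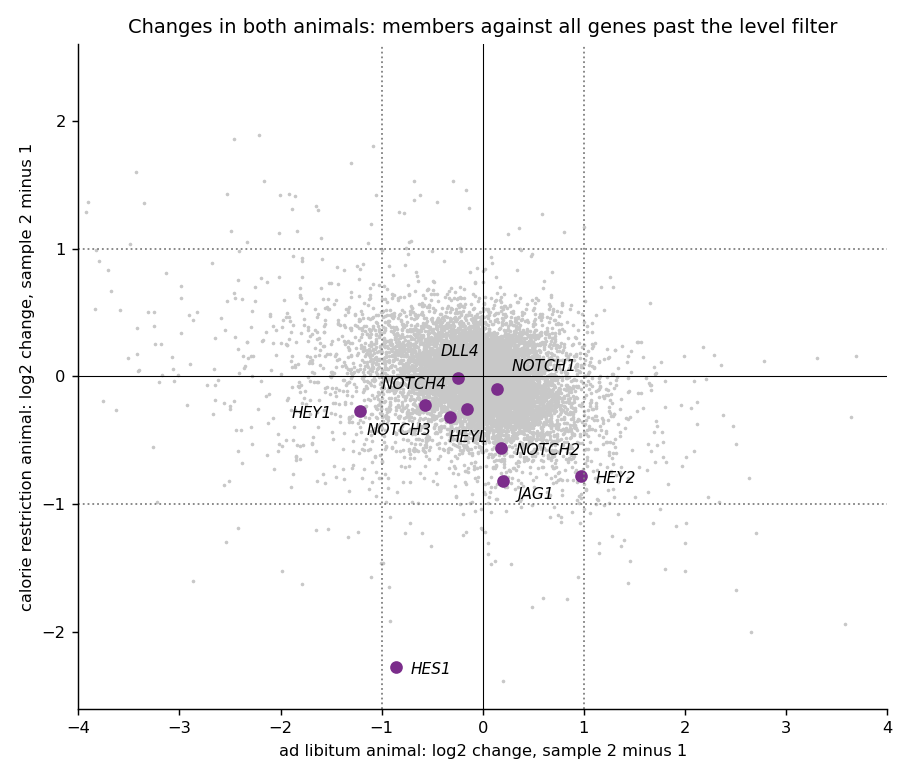
Log2 change, sample 2 minus sample 1, in the ad libitum animal (horizontal) and the calorie restriction animal (vertical) for 9888 genes (grey) and the 10 Notch genes (purple), with dotted lines at 2-fold; 16 genes lie outside the plotted range. HES1 is far below the cloud, HEY1 is past 2-fold on the horizontal axis only, JAG1 lies at its lower edge and HEY2 at its lower right.

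The rest of the pathway was described from lists of ligands, cleavage enzymes, nuclear partners and modifiers, of which 50 genes were measured and 41 passed the level filter. Of these 41, 3 were 2-fold lower and none higher in the ad libitum animal, against the 6.58% and 2.67% of all genes given above, and none was either in the calorie restriction animal. Of the 9 below the filter, 1 was 2-fold higher in the ad libitum animal.

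The lower genes in the ad libitum animal were LFNG, which encodes a sugar transferase that modifies Notch receptors, ADAM17, a protease that can cut them, and MAML2, a Mastermind coactivator. LFNG was at 7.88 and 6.57 there and at 7.43 and 7.48 in the calorie restriction animal. ADAM17 was at 8.16 and 7.08, and at 8.48 and 8.44. MAML2 was at 9.84 and 8.81, and at 10.25 and 9.63. In all 3 genes the ad libitum animal's sample 2 was the lowest, as in 36.4% of all genes. The 3 were named for being lower in that sample, so the choice largely sets this order. The dimmer probe sets of LFNG and MAML2 gave -0.27 and -0.56 there, and the other 2 of ADAM17 gave -1.40 and -0.65. The higher gene, the ligand gene DNER (2.48 and 3.48), lay under the 25th percentile of all genes in all 4 samples.

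By role, 7 of 8 genes for receptor cleavage were lower in the ad libitum animal's sample 2 (median -0.44), among them ADAM10 (-0.89) and the gamma-secretase subunit genes APH1B (-0.87) and NCSTN (-0.55). In the calorie restriction animal 7 of 8 were negative too, with a median of -0.050, and over all genes 51.4% and 54.3% were negative in the 2 animals. Nuclear complex genes leaned the way HEY2 did. In the ad libitum animal 10 of 13 had a positive change (median 0.24). In the other animal 10 of 13 had a negative one (median -0.27), and 8 of 13 had both signs. The Groucho-type corepressor genes TLE2 (0.72 and -0.59) and TLE4 (0.74 and -0.47) were examples, and RBPJ itself gave 0.58 and -0.14. Of all 9888 genes, 4799 were positive in the ad libitum animal and 5368 negative in the other. Of those 5368, 2382 were negative in both animals, and nearly all of the rest had both signs. Across all genes the changes of the 2 animals had a Pearson r of -0.27. The hybridisation controls given beside HEY2 had the mirror image of the nuclear complex pattern, and their part was not tested. Glycosylation and trafficking genes had medians of 0.0087 and 0.063. The other HES genes and NRARP, a feedback inhibitor of Notch, had medians of -0.025 and -0.028, with NRARP at -0.64 and -0.082. The other ligands had medians of 0.056 and -0.095. DLL1, a Delta-like ligand below the level filter, gave -0.41 and -0.80.

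**Figure D4:**
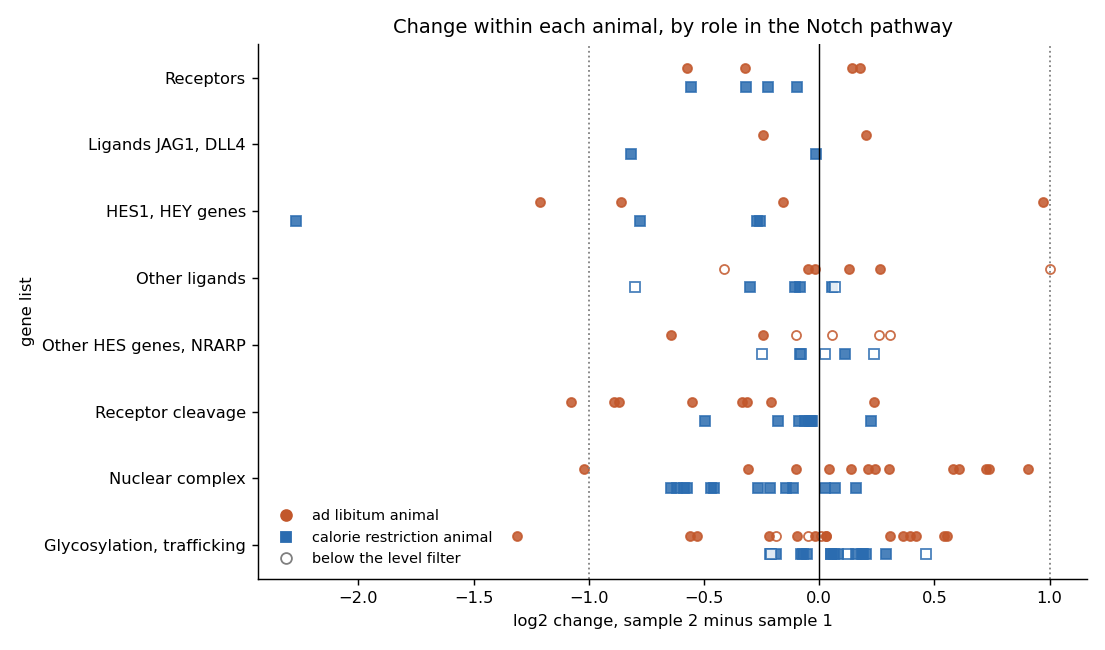
Log2 change, sample 2 minus sample 1, of each measured Notch pathway gene by role, in the ad libitum animal (circles) and the calorie restriction animal (squares); open symbols lie below the level filter and dotted lines mark 2-fold. Genes for receptor cleavage lie mostly to the left in the ad libitum animal, and most of those of the nuclear complex lie to the right in the ad libitum and to the left in the calorie restriction animal.

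Between the animals, 3 of the 10 genes did not overlap, NOTCH1, NOTCH4 and HEY1, all higher in the calorie restriction animal, where 16.6% of all genes were higher without overlap and 18.7% lower. HEY1 averaged 8.79 ± 0.19 (SD, n = 2) in the calorie restriction and 7.59 ± 0.86 (SD, n = 2) in the ad libitum animal, a difference of 1.19 or 2.29-fold (limma, SE 0.44, 95% interval 0.052 to 2.33, adjusted p = 0.879). NOTCH4 averaged 7.11 ± 0.16 and 6.40 ± 0.41 (SD, n = 2 each), a difference of 0.71 (limma, SE 0.26, interval 0.042 to 1.38, adjusted p = 0.879). NOTCH1 averaged 5.73 ± 0.067 and 5.51 ± 0.10 (SD, n = 2 each), a difference of 0.21 (limma, SE 0.16, interval -0.20 to 0.62, adjusted p = 0.925).

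None of the 10 genes, and 0% of all genes, passed limma's Benjamini-Hochberg adjusted p of 0.05 for this difference. Before adjustment, HEY1 and NOTCH4 were under 0.05, as were 5.28% of all genes. The error in these fits is the spread within 2 animals and says nothing of how animals vary. Both differences lean on the ad libitum animal's sample 2. Without it, HEY1 differed by 0.59 and NOTCH4 by 0.42. Then 5 of the 10 genes did not overlap, HEY1, HEY2, NOTCH1 and NOTCH4 higher and DLL4 lower in the calorie restriction animal. With 1 sample left of the ad libitum animal, 32% of all genes were higher without overlap and 39.1% lower, 71.1% in either direction. Without that animal's sample 1, 474 of all 9888 genes passed the adjusted threshold and HEY1 differed by 1.80 (limma, adjusted p = 0.0273), which rests on that sample 2 alone for the ad libitum diet and assumes that it varies as the other animal's samples do. The list mean of the endothelial markers, given above, was also higher in the calorie restriction animal, by 0.80. Over all 4 samples 10 of 15 markers did not overlap, all higher in that animal, against 16.6% of all genes.

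For the other 7 genes the differences lay between -0.051 for NOTCH2 and 0.16 for HES1. They were smaller than their standard errors in limma. The interval was narrow for DLL4 (-0.43 to 0.49) and wide for HES1 (-1.92 to 2.23), whose samples 1 and 2 were far apart in the calorie restriction animal.

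A change common to both animals was fitted with the animal as a block. HES1 had a common change of -1.57, or 2.96-fold lower in sample 2 (limma, SE 0.41, interval -2.62 to -0.51, adjusted p = 1.00), negative in 2 of 2 animals. With the mean of its 3 probe sets it was -1.02, and read by the dim probe set alone -0.068. HEY1 had -0.74 (limma, interval -1.66 to 0.17, adjusted p = 1.00). No member passed the adjusted threshold, and 0% of all genes did. Before adjustment 1 of 10 and 1.82% of all genes had p under 0.05. In rank, 30 genes had a larger common decrease than HES1.

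**Figure D5:**
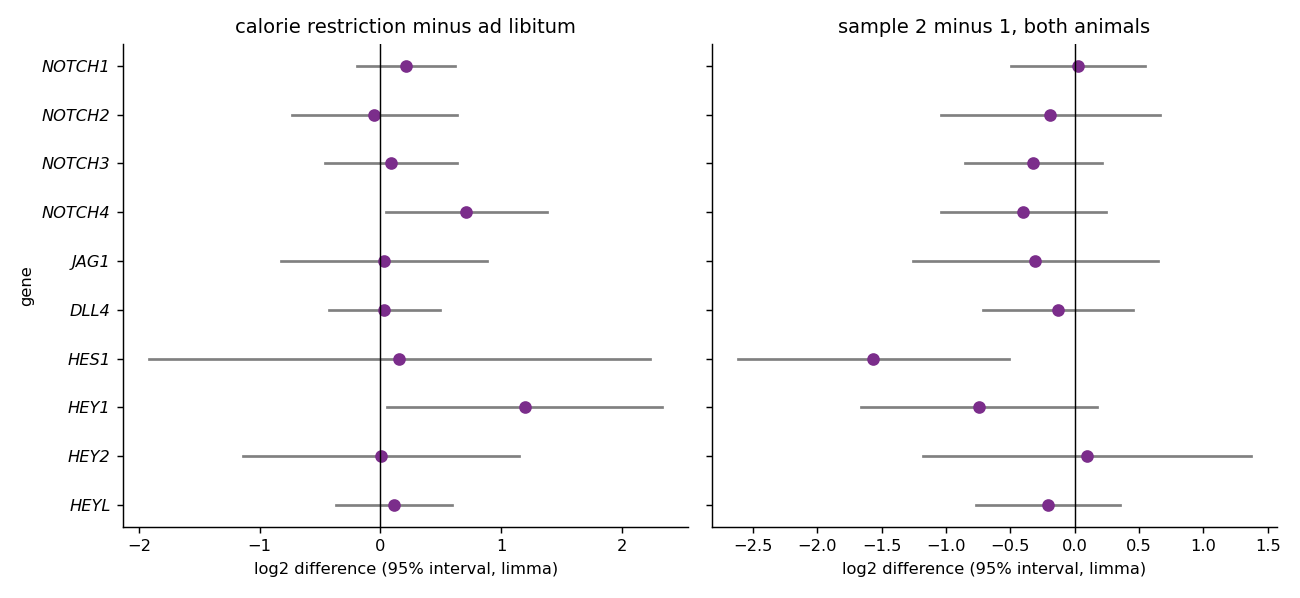
Limma estimates (points) with 95% intervals (lines) on the log2 scale for each gene: left, calorie restriction minus ad libitum; right, sample 2 minus sample 1 in both animals with animal as a block. The intervals for NOTCH4 and HEY1 on the left and HES1 on the right do not reach 0 before adjustment for 9888 genes, and no estimate passed after it.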

How the data were processed

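Total RNA was amplified to biotin-labelled cRNA, and each sample hybridised to 1 array, per the labels' protocols. The deposited log2 signals, 1 for each probe set, were made by the authors with Affymetrix Power Tools and RMA, per the submitters' processing notes; no version or setting was found in the labels. Probe sets were designed on human genes, so a mismatch to vervet sequence can lower a signal. Of 54675 probe sets, 41091 had 1 gene symbol in the platform annotation, 1801 had several, 11721 none and 62 were controls. Of the members' 26 probe sets, 18 are of designs that can bind related sequences. The brightest of NOTCH2, NOTCH3, JAG1, HES1, HEY1 and HEYL are among these. All 10 symbols are in the RefSeq vervet annotation. The brightest probe set represented a gene, and genes from the median gene mean (5.26) upward were fitted. Changes within an animal were called at 2-fold, with no test. The difference between animals and the common change were fitted with limma 3.58.1 in R 4.3.3 (trend, Benjamini-Hochberg), with 2 and 1 residual degrees of freedom, after tests on simulated data. The members, lists and rules were chosen with earlier results of these data known. All members are named, other pathway genes where 2-fold in either animal or as examples of a list, chosen after their values were seen. For each member whose values spanned 1 or more, the 3 genes nearest in Euclidean distance are named. The number of arrays limits the precision, and scanner files were not used here. Alternatives were other probe set rules, cyclic loess, other filters and thresholds, no trend, a replicate block and leaving out samples.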

Additional observations from a re-analysis of the deposited data

Results flagged for a closer look

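HEY2 moved in opposite directions in the 2 animals, by 0.97 in the ad libitum and by -0.78 in the calorie restriction animal (log2, sample 2 minus sample 1). Both changes passed 1.5-fold. With 1 change per animal this difference was not tested.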

How the results depend on the processing

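At 1.5-fold in place of 2-fold, the ad libitum animal had 1 member higher and 2 lower and the calorie restriction animal 3 lower. After cyclic loess 1 member, HEY2, was 2-fold higher in the ad libitum animal. With probe sets of specific design where a gene has one, HES1 is read by its dim probe set: its changes were -0.22 and 0.082, no member was 2-fold lower in the calorie restriction animal (0), and its difference between animals was -0.096. When a gene's probe sets were averaged, the differences between animals, all near 0, turned sign for NOTCH2 (0.032), JAG1 (-0.042) and HEY2 (-0.058), as did the common change of NOTCH1 (-0.00036). Leaving out 1 sample at a time, limma called between 0 and 474 genes between animals, the latter without the ad libitum animal's sample 1; the other 3 fits called 0. The member differences then ranged from -0.33 to 0.23 for NOTCH2, -0.075 to 0.25 for NOTCH3, -0.38 to 0.44 for JAG1, -0.089 to 0.15 for DLL4, -0.98 to 1.29 for HES1, -0.48 to 0.49 for HEY2, -0.012 to 0.24 for HEYL, 0.59 to 1.80 for HEY1, 0.42 to 1.00 for NOTCH4 and 0.14 to 0.28 for NOTCH1. Without the ad libitum animal's sample 2, an alternative chosen after seeing the data, 5 members did not overlap between animals, 4 higher and 1 lower in the calorie restriction animal, against 32% and 39.1% of all genes. In either direction that was 71.1% of all genes. The number of members negative in the calorie restriction animal was 9 or 10 and the number highest in its sample 1 was 7 or 8 under 5 alternatives, also added then. With sample number as a replicate block 0 genes were called between animals, as without it; the sample numbers are not known to pair the animals, and across genes the changes of the 2 animals had a Pearson r of -0.27. A crossed block, also chosen after seeing the data, called 0. No other difference between animals or common change turned sign, and the only one to pass the threshold was HEY1 without the ad libitum animal's sample 1.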
